A study of Schizosaccharomyces pombe with 24 samples.

Results

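The M-cell pheromone and receptor genes of fission yeast, Schizosaccharomyces pombe, are described here as 5 genes chosen by name: mfm1 (SPAPB8E5.05), mfm2 (SPAC513.03) and mfm3 (SPBPJ4664.03), which encode precursors of the M-factor pheromone, mam1 (SPBC25B2.02c), which encodes the exporter of M-factor, and mam2 (SPAC11H11.04), which encodes the receptor for P-factor. They are 5 of the 6878 features counted in each library. All 5 passed the low-count filter, as did 4220 genes in all.

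Fission yeast has 2 mating types, P (h+) and M (h-), and cells mate when nitrogen runs out. M cells make M-factor, a short peptide that is cut from its precursor and given a lipid group at its end before the transporter Mam1 carries it out of the cell. M cells also carry Mam2, a receptor of the class that signals through a G protein, and so sense the P-factor of P cells, while P cells carry the M-factor receptor Map3. The transcription factor Ste11 switches on mating genes when nitrogen is lost, and the M-specific genes need, in addition, a protein encoded in the M form of the mating-type cassette.

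The study sequenced small RNA from 4 strains, all labelled 975 h+, so that every group was of the P type by its label. The wild type (wt) carried no deletion, and ago1D, clr4D and dcr1D each had the gene ago1 (Argonaute), clr4 (the histone methyltransferase of heterochromatin, which covers the silent mating-type cassettes) or dcr1 (Dicer) replaced by the marker NatMX6. Cells grew in supplemented minimal medium, were washed and were kept in the same kind of medium without nitrogen. Libraries, 24 in all, were made at 0 h, labelled as control, and after 1, 2, 4, 10 and 24 h, a single one per strain at each time. RNA below 200 bp was kept and RNA of 20 to 30 nt was cut from a gel, so a count is a short RNA that matched the gene and not a whole messenger RNA.

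Gene counts per library ranged from 117245 to 2121235, and 67.3% to 97.3% of the reads in a file had been set aside for low mapping quality. The count of ago1 was 0 to 8 in the ago1D libraries and 11 to 35 in wt. The count of clr4 was 25 to 85 in the libraries labelled clr4D and 9 to 31 in wt, and that of dcr1 was 23 to 79 in the libraries labelled dcr1D and 16 to 37 in wt, so these counts do not bear out either label. The strain names below are those of the labels. In wt, clr4D and dcr1D all 6 libraries were closest to the mean profile of their own labelled time in the other strains, against 3 of 6 in ago1D (those at 4, 10 and 24 h). The ago1D libraries labelled 0, 1 and 2 h were closest to 1, 2 and 0 h. Their correlations with their own labelled time were -0.155, 0.314 and -0.403. The ago1D times below are those of the labels. Nothing in the labels tells whether a strain's libraries were separate cultures, and p-values therefore describe only the spread between these libraries.

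The coding sequences of the 3 M-factor genes are shown because reads of 20 to 30 nt can be assigned to a gene only where the copies differ. They were read by gene identifier from the RefSeq annotation and genome of ASM294v3, since ASM294v2, the assembly named in the submitters' processing notes, was not used here. Capitals mark runs of at least 12 bases that occur in another M-factor coding sequence.

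mfm1: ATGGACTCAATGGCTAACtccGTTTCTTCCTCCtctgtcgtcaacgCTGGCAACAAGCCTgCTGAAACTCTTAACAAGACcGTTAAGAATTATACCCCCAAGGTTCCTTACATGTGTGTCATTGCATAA

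mfm2: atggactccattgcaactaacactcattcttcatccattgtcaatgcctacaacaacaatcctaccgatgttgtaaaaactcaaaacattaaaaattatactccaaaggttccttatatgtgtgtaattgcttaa

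mfm3: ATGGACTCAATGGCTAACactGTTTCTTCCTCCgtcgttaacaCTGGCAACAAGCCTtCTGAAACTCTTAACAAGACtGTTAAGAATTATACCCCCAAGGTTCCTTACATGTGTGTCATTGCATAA

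Each sequence starts with ATG and ends in a stop codon, and each has 2 exons. mfm1 (chromosome I, plus strand) codes for 42 residues, mfm2 (chromosome I, minus strand) for 44 and mfm3 (chromosome II, plus strand) for 41. Every predicted protein ends in a motif of the CAAX type, the signal for lipid attachment. mfm1 and mfm3 were 93.0% identical over their aligned coding bases and shared a run of 48 bases, whereas mfm2 was 68.8% identical to mfm1 and 70.6% to mfm3, with no shared run longer than 11 bases. The last 21 residues of the precursors were the same in mfm1 and mfm3, and the last 14 were the same between mfm2 and each of them.

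Most windows of 20 or 30 bases in the 5 transcripts have only 1 exact place in the genome. Of the 20-base windows in the transcripts, 90.7% were unique in mfm1, 99.8% in mfm2 and 93.1% in mfm3, and all were unique in mam1 and mam2. At 30 bases 96.8% were unique in mfm1, 97.2% in mfm3 and all in mfm2. Reads from the repeated stretches get a low mapping quality in this kind of alignment and were set aside, so mfm1 and mfm3 may be undercounted. Where the short RNAs lie along each gene was not measured, so the extent is not known. mfm3 lies wholly opposite the non-coding RNA SPNCRNA.1381, and 48 bases of mam1 (chromosome II, minus strand) lie opposite SPBC25B2.01. The counting kept the strands apart: a count was found for 340 of 352 features nested (with a margin of 50 bases) in exons of the opposite strand, and for 1 of 26 nested on the same strand. The sources used here do not state which strand counted as sense. Over 6 libraries SPNCRNA.1381 had 33 counts in wt, 31 in ago1D, 24 in clr4D and 27 in dcr1D.

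mfm1 was almost absent from wt and abundant late in clr4D and dcr1D. In wt its counts at 0, 1, 2, 4, 10 and 24 h were 1, 0, 1, 2, 2 and 2, and in ago1D they were 1, 0, 1, 1, 4 and 1. In clr4D they were 0, 4, 7, 95, 562 and 286, and in dcr1D they were 4, 4, 14, 144, 328 and 195. The wt and ago1D counts stayed between 0 and 4 throughout, and every clr4D and dcr1D library from 4 h on lay far above them. As normalised CPM (counts scaled to library size by the TMM method), mfm1 in clr4D went from 28.4 at 2 h to 268 at 4 h, 787 at 10 h and 933 at 24 h, and in dcr1D from 50.9 to 312, 358 and 799. Over 0, 1 and 2 h together mfm1 had 11 counts in clr4D and 22 in dcr1D against 2 in wt, which gave ratios of 5.47 (95% exact interval 1.19 to 50.8) and 5.96 (1.46 to 52.2). Summed over 4, 10 and 24 h the normalised count was 117 times that of wt in clr4D (53.7 to 321) and 70.4 times in dcr1D (32.2 to 193). The intervals cover counting error only.

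mfm2 was the M-factor gene already present before nitrogen was removed. Its wt counts at the 6 times were 0, 1, 0, 2, 0 and 2, and its ago1D counts were 1, 0, 1, 0, 2 and 1. In clr4D the counts were 21, 11, 18, 53, 142 and 54, and in dcr1D they were 27, 12, 10, 71, 110 and 38. No clr4D or dcr1D library had fewer than 10 counts, and no wt or ago1D library had more than 2. At 0 h the CPM of mfm2 was 54.8 in clr4D and 22.6 in dcr1D, at least 9.38-fold and 3.88-fold higher than wt, with wt set at a floor of 3 counts in its library. Over 0, 1 and 2 h the 50 counts in clr4D against 1 in wt gave a ratio of 49.7 (8.53 to 2003), and the 49 counts in dcr1D gave 26.5 (4.54 to 1069). Over 4, 10 and 24 h the ratios were 46.5 (17.9 to 172) and 34.7 (13.4 to 128). Within clr4D the CPM of mfm2 was 73.1 at 2 h, 150 at 4 h and 199 at 10 h, and within dcr1D it was 36.4, 154 and 120.

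mfm3 showed the widest range of counts, from 1 to 976 in clr4D. Its counts at the 6 times were 0, 1, 4, 1, 0 and 0 in wt and 4, 0, 5, 2, 5 and 1 in ago1D. In clr4D they were 1, 2, 5, 110, 976 and 382, and in dcr1D they were 3, 2, 5, 179, 337 and 297. Up to 2 h the 4 strains overlapped, at 0 to 5 counts a library, and from 4 h on clr4D and dcr1D stood apart. Over 0, 1 and 2 h the ratio to wt was 1.59 (0.459 to 6.18) in clr4D and 1.08 (0.337 to 4.04) in dcr1D. Over 4, 10 and 24 h wt had 1 count, against 1468 in clr4D and 813 in dcr1D, which gave ratios of 1097 (197 to 43340) and 515 (92.1 to 20360).

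mam2, the P-factor receptor gene (chromosome I, plus strand) was also low in wt at all times and high in clr4D and dcr1D from 4 h on. Its counts at the 6 times were 1, 2, 1, 0, 1 and 1 in wt and 3, 1, 2, 2, 12 and 2 in ago1D. In clr4D they were 5, 4, 6, 63, 341 and 42, and in dcr1D they were 10, 2, 7, 68, 168 and 29. The 4, 10 and 24 h libraries of clr4D and dcr1D lay above every wt and ago1D library. Over these times the ratio to wt was 167 (45.9 to 1380) in clr4D and 83.9 (23 to 696) in dcr1D, with 2 counts in wt. Over 0, 1 and 2 h the ratio was 3.73 (1.19 to 15.4) in clr4D and 2.57 (0.855 to 10.4) in dcr1D. All 6 clr4D libraries had a higher CPM of mam2 than every wt library, as did 4 of 6 dcr1D libraries.

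mam1, the exporter gene, was the member with a steady count in wt. Its counts at the 6 times were 25, 13, 18, 22, 29 and 16 in wt and 18, 13, 26, 20, 40 and 3 in ago1D. In clr4D they were 19, 27, 27, 151, 487 and 37, and in dcr1D they were 89, 25, 24, 148, 248 and 19. As CPM, wt ran from 48.6 to 76.8 (median 64.2) and ago1D from 20.8 to 56.1, while clr4D reached 426 at 4 h and 682 at 10 h, and dcr1D 321 and 271. At 0, 1 and 2 h together mam1 stood at 1.30 times wt in clr4D (0.903 to 1.87) and 1.33 times in dcr1D (0.971 to 1.85), and both intervals include 1. At 4, 10 and 24 h together the ratio was 7.53 (5.85 to 9.83) in clr4D and 3.92 (3.02 to 5.16) in dcr1D.

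**Figure D1:**
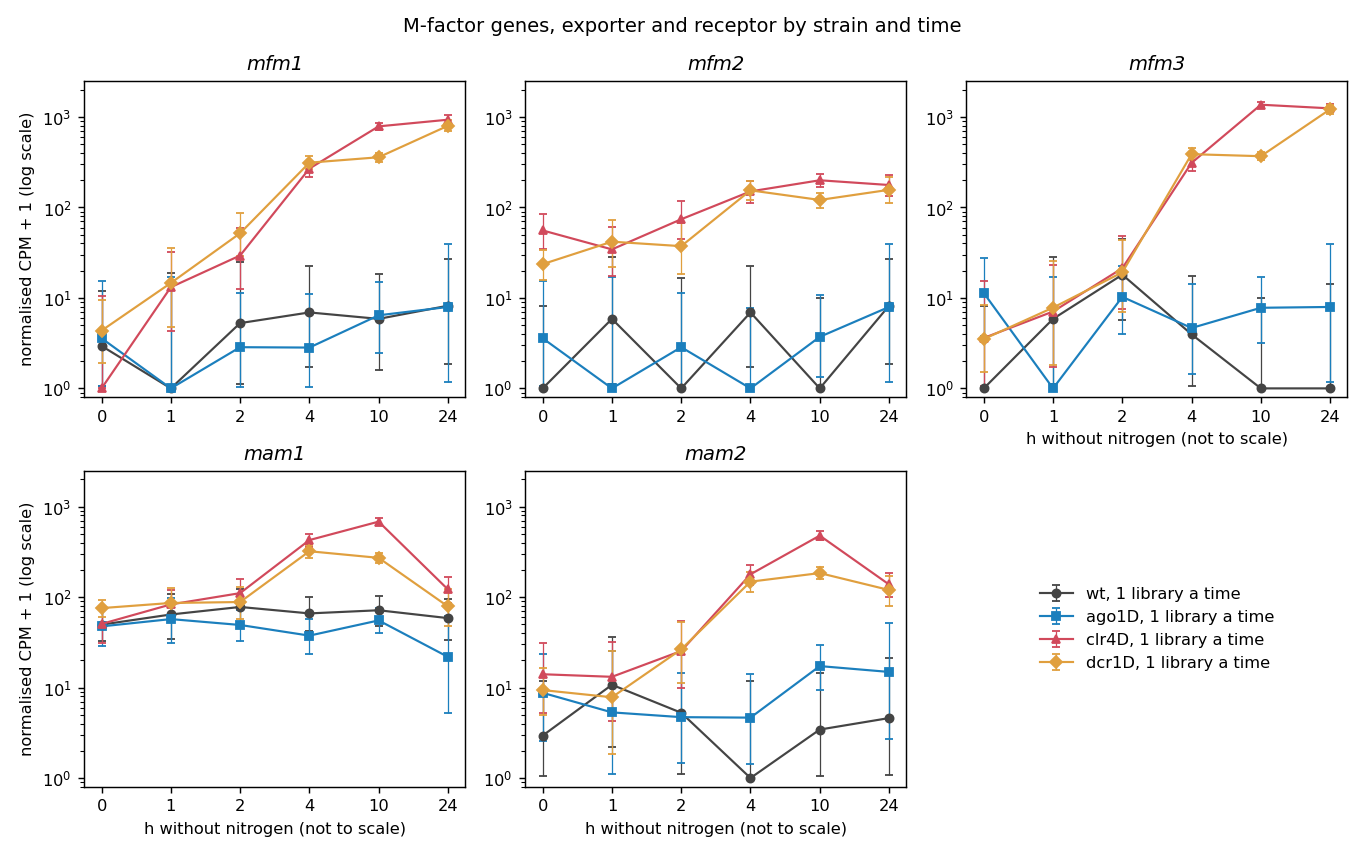
Normalised CPM plus 1 (log axis) of the 5 genes at 6 times without nitrogen, 1 library a point, with 95% exact Poisson intervals that cover counting error only. From 4 h on clr4D and dcr1D lie above wt and ago1D for mfm1, mfm3 and mam2. The points of mfm2 are above from 0 h, with intervals that meet those of wt at 1 h. mam1 is far above wt at 4 and 10 h and close to it again at 24 h.

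The genes did not start together. The start was taken as the earliest labelled time at which the Poisson interval of a library lay wholly above that of the wt library of the same time. By that measure mfm2 started at 0 h in both clr4D and dcr1D, and its interval lay above wt in 5 of 6 libraries of each. mfm1 started at 4 h in clr4D and at 2 h in dcr1D, where the interval at 2 h was 27.8 to 85.4 CPM against 0.108 to 23.8 in wt. mfm3, mam2 and mam1 started at 4 h in both strains. Once started, mfm1, mfm3 and mam2 stayed above wt at all later times, whereas mam1 was above at 4 and 10 h and its interval met that of wt at 24 h in both strains. A start by count alone, at 10 counts or more, gave the same times for mfm1, mfm2 and mfm3, gave 4 h for mam2 in clr4D but 0 h in dcr1D, and gave 0 h for mam1, which reaches 10 counts in wt too. These times are those at which a library on its own stood above wt. Summed over 0, 1 and 2 h, mfm1 in both strains and mam2 in clr4D were already above wt, as the ratios above give. With 1 library for each strain and time, the difference between 2 h and 4 h for mfm1 rests on 7 and 14 counts.

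Apart from mam1, the genes had few counts in wt and ago1D. Over 6 libraries wt had 8 counts of mfm1, 5 of mfm2, 6 of mfm3 and 6 of mam2, and no library of wt had more than 4 of any of them. In ago1D the sums were 8, 5, 17 and 22. No ago1D library had a Poisson interval above that of its wt library for any of the 5 genes. Leaving mam1 aside, the largest ago1D count, 12 for mam2 at 10 h, was 16.3 CPM, against 478 in clr4D and 183 in dcr1D at that time. Summed over 6 times, the ago1D to wt ratio was 2.81 (1.10 to 8.46) for mam2, 2.17 (0.816 to 6.72) for mfm3, 0.766 (0.251 to 2.34) for mfm1, 0.766 (0.176 to 3.33) for mfm2 and 0.747 (0.576 to 0.969) for mam1. Over 4, 10 and 24 h the ratio was 5.75 (1.35 to 51.5) for mam2, from 16 counts against 2, and 5.75 (0.771 to 255) for mfm3, from 8 against 1. At the same times it was 0.719 (0.192 to 2.69) for mfm1, 0.539 (0.0790 to 3.19) for mfm2 and 0.676 (0.471 to 0.968) for mam1. In these bulk samples, fewer cells of a type and less RNA per cell cannot be told apart.

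The strains were compared across all genes with edgeR's quasi-likelihood test, with terms for strain and time and Benjamini-Hochberg adjustment. Against wt, 4 of the 5 genes were higher in clr4D, where 0.829% of all genes tested were called higher, and 4 of 5 were higher in dcr1D, where 1.87% were. mfm1, mfm2, mfm3 and mam2 passed the low-count filter through their clr4D and dcr1D libraries, so they had to differ between strains and their count is given as a description. The 5 log2 fold changes ran from 1.54 to 6.58 in clr4D (median 5.38, against -0.02 for all genes) and from 1.03 to 6.06 in dcr1D (median 4.91, against -0.01 for all genes). Those of the 4 genes with few wt counts depend on the prior count of the fit. mam1, which was counted in all strains, stood at 1.54 (SE 0.39, adjusted p = 0.0676) in clr4D and 1.03 (SE 0.39, adjusted p = 0.161) in dcr1D, and was above wt at 6 of 6 times in each. It did not pass in either. With 1 library per strain and time, the spread in this test includes any change of a strain difference over time. With the ago1D libraries of 0, 1 and 2 h left out of the fit, mam1 passed in both, at 1.59 (adjusted p = 0.00303) and 1.12 (adjusted p = 0.0225). That fit tested 4735 genes, and the share of them called higher was not computed. Without the 10 h libraries of every strain 2 genes (mfm1 and mfm2) were called in each of clr4D and dcr1D, mfm3 and mam2 then failing the low-count filter.

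In ago1D against wt none of the 5 genes was called by edgeR (0 at an unadjusted p below 0.05, and 0 with DESeq2), where 4.31% of all genes were called in either direction. The log2 fold changes ran from -0.54 for mam1 to 1.29 for mfm3 (SE 0.43 and 1.54). The SEs of mfm1 and mfm2 were 0.84 each and that of mam2 was 0.88, so changes of this size were not detectable at this depth. With the ago1D libraries of 0, 1 and 2 h left out, mam1 was called lower in ago1D, at -1.50 (SE 0.46, adjusted p = 0.0459). In that fit 2.49% of all genes were called lower, and none of the other 4 was called. It holds ago1D at 4, 10 and 24 h alone, with time terms shared by all strains. The rise of mam1 in clr4D and dcr1D enters those terms, so this call is given as a description. Over the same times the ago1D to wt ratio of mam1 by counts was 0.676 (0.471 to 0.968).

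**Figure D2:**
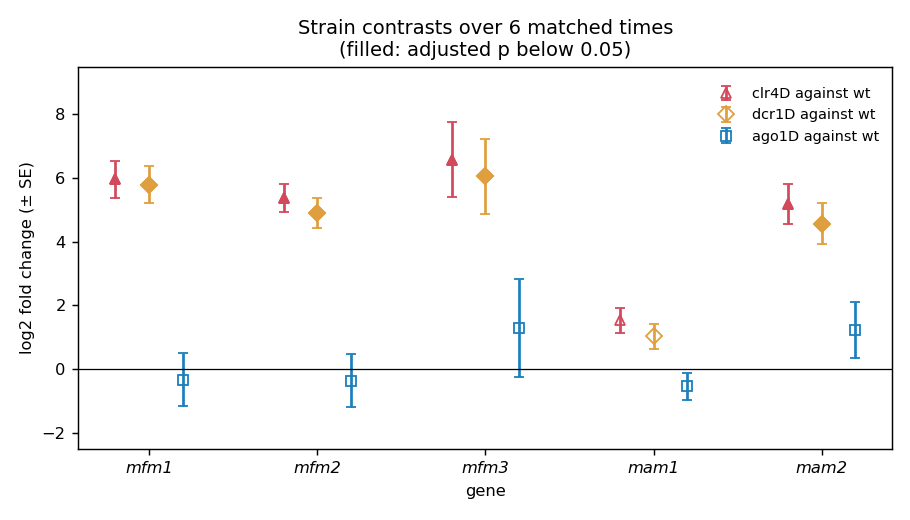
Fitted log2 fold change against wt with its SE, over 6 matched times (6 libraries a strain), from edgeR; filled symbols passed at an adjusted p below 0.05. mfm1, mfm2, mfm3 and mam2 are filled in clr4D and dcr1D, mam1 is open in all contrasts, and the ago1D values run from -0.54 to 1.29.

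The libraries labelled clr4D and dcr1D were compared with each other. None of the 5 genes was called by edgeR (0 at an unadjusted p below 0.05, and 0 with DESeq2), where 0.142% of all genes were called. The log2 difference, clr4D minus dcr1D, was 0.17 for mfm1 (95% interval -0.63 to 0.98), 0.47 for mfm2 (-0.07 to 1.01), 0.52 for mfm3 (-0.93 to 1.98), 0.51 for mam1 (-0.25 to 1.26) and 0.63 for mam2 (-0.16 to 1.42). All 5 estimates were above 0 and all 5 intervals include 0. These intervals do not show that the strains act alike, since they reach a log2 difference of 0.98 or more for every gene. Compared with clr4D, ago1D was lower for 5 of 5 genes, where 0.427% of all genes were called lower, with log2 differences from -6.29 to -2.08. Compared with dcr1D, ago1D was lower for 4 of 5, where 0.474% were called lower, and mam1 was at -1.57 (SE 0.40, adjusted p = 0.0706). mfm1, mfm2, mfm3 and mam2 passed the low-count filter through their clr4D and dcr1D libraries, so both counts are given as a description. Their log2 differences from ago1D depend on the prior count of the fit. With the compared libraries alone, ago1D was called lower for 1 gene against clr4D and 0 against dcr1D. The contrasts against wt share the wt libraries, and those of ago1D share the ago1D libraries.

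Late times, 10 and 24 h, were compared with 0, 1, 2 and 4 h within each strain. No gene of the 5 was called in clr4D, where 2.11% of all genes were called higher, or in dcr1D, where 2.09% were. At an unadjusted p below 0.05 the edgeR counts were 4 and 2, and with DESeq2 they were 0 and 0. The log2 differences were 3.46 for mfm1, 1.27 for mfm2, 3.92 for mfm3, 1.27 for mam1 and 2.42 for mam2 in clr4D, and 2.59, 1.10, 2.91, 0.33 and 1.69 in dcr1D, with adjusted p from 0.0992 to 0.350 and from 0.266 to 0.914. None of the 5 was called in wt (0.118% of all genes in either direction) or in ago1D (0.0%), with 0 at an unadjusted p below 0.05 and 0 with DESeq2 in each. The difference between strains in this late change was not called for any of the 5 in clr4D against wt, in dcr1D against wt or in clr4D against dcr1D (0.0% of all genes in each, 0 of the 5 at an unadjusted p below 0.05, and 0 with DESeq2).

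Counting 4 h among the late times changed these calls. Then 4 of the 5 were higher late in clr4D, where 0.427% of all genes were called higher, and 4 of the 5 in dcr1D, where 0.379% were. mfm1, mfm3 and mam2 passed the low-count filter mainly through the 4, 10 and 24 h libraries of these strains. They therefore had to differ between these periods, and their calls are given as a description. In clr4D mfm3 rose by 6.75 on the log2 scale (SE 0.92, adjusted p = 0.000441), mfm1 by 5.72 (SE 0.84, adjusted p = 0.000747), mam2 by 4.04 (SE 0.56, adjusted p = 0.000441) and mam1 by 2.37 (SE 0.51, adjusted p = 0.0371). The value of mfm2 was 1.72 (SE 0.42, adjusted p = 0.0851) and did not pass. In dcr1D mfm3 rose by 6.45 (SE 0.92, adjusted p = 0.00219), mfm1 by 4.66 (SE 0.79, adjusted p = 0.00553), mam2 by 3.62 (SE 0.56, adjusted p = 0.00244) and mfm2 by 2.16 (SE 0.44, adjusted p = 0.0354). The value of mam1 there was 1.46 (SE 0.49, adjusted p = 0.206) and did not pass.

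Between 10 and 24 h mam1 and mam2 were the genes that came down in both strains. From 10 to 24 h the CPM of mam1 changed by a ratio of 0.177 (95% exact interval 0.123 to 0.247) in clr4D and 0.288 (0.170 to 0.459) in dcr1D. For mam2 the ratio was 0.287 (0.203 to 0.396) in clr4D and 0.648 (0.421 to 0.966) in dcr1D. For mfm1 it was 1.19 (1.02 to 1.37) and 2.23 (1.86 to 2.67), for mfm2 0.886 (0.635 to 1.22) and 1.30 (0.873 to 1.89), and for mfm3 0.912 (0.808 to 1.03) and 3.31 (2.82 to 3.88). With TMM scaling and beyond counting error, mam1 and mam2 were lower at 24 h than at 10 h in both strains, and mfm1 was higher in both. mfm3 was higher in dcr1D alone, and the intervals of mfm2 include 1 in both strains, as does that of mfm3 in clr4D. The TMM factors at 10 and 24 h were 1.25 and 1.60 in clr4D and 1.33 and 1.34 in dcr1D. The ratios depend on this scaling, and ratios by total counts were not computed. A measure that does not depend on library size is the share of the 5 genes' counts held by mfm1, mfm2 and mfm3. In clr4D it was 54.7% (50.1 to 59.2) at 4 h, 67.0% (65.1 to 68.8) at 10 h and 90.1% (87.9 to 92.1) at 24 h, with Clopper-Pearson intervals. In dcr1D it was 64.6% (60.6 to 68.4), 65.1% (62.3 to 67.8) and 91.7% (89.1 to 93.8). Each of these values comes from 1 library, so the spread between cultures at a time was not measured.

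**Figure D3:**
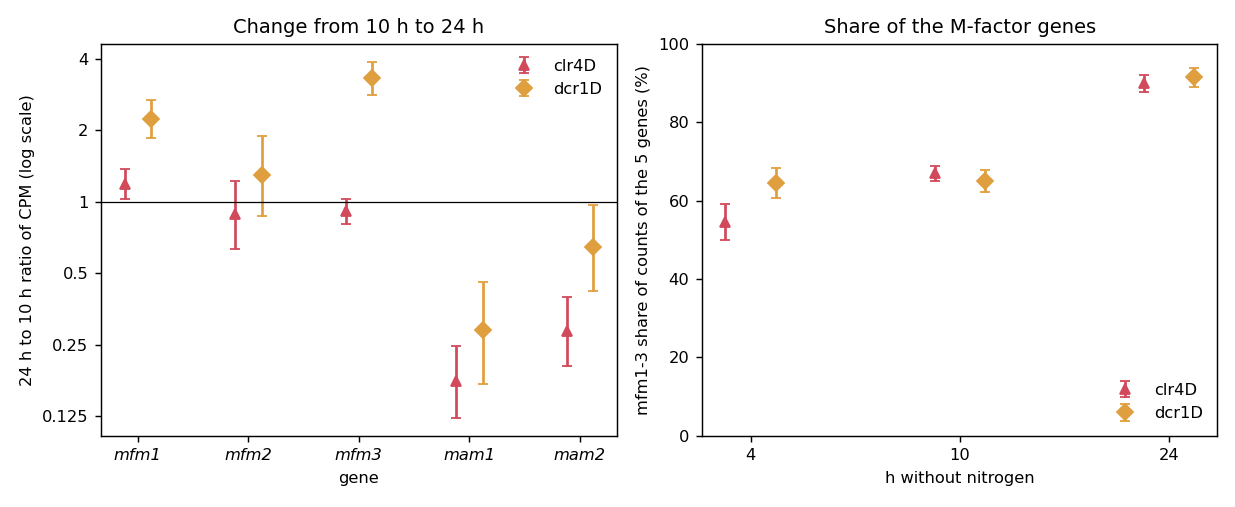
Left, the ratio of CPM at 24 h to that at 10 h (log axis) for the 5 genes in clr4D and dcr1D, 1 library at each time, with 95% exact intervals for counting error; right, the percentage of the 5 genes' counts held by mfm1, mfm2 and mfm3 at 4, 10 and 24 h, with Clopper-Pearson intervals. mam1 and mam2 lie below a ratio of 1 in both strains, and the share is above 90% at 24 h in both.

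From 4 to 10 h the ratio of CPM was higher in the clr4D libraries than in the dcr1D libraries for each of the 5 genes. For mfm2 the intervals of the strains overlap. In clr4D the CPM ratio of 10 h to 4 h was 2.94 (2.36 to 3.69) for mfm1, 4.41 (3.61 to 5.42) for mfm3, 2.69 (2.05 to 3.57) for mam2, 1.60 (1.33 to 1.94) for mam1 and 1.33 (0.964 to 1.86) for mfm2. In dcr1D the same ratios were 1.15 (0.941 to 1.41), 0.949 (0.789 to 1.14), 1.25 (0.934 to 1.68), 0.845 (0.686 to 1.04) and 0.781 (0.574 to 1.07). With TMM scaling all 5 dcr1D intervals include 1, and 4 of the 5 clr4D intervals lie above it. The TMM factors at 4 and 10 h were 0.872 and 1.25 in clr4D and 0.975 and 1.33 in dcr1D, and these ratios depend on them. With 1 library a time, a test over samples of the difference in course was not possible.

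Levels were compared between genes per exon length, at 10 h, as CPM per kb of exon. In clr4D mfm3 stood at 5063 (4752 to 5393), mfm1 at 1806 (1660 to 1961), mfm2 at 445 (375 to 525), mam2 at 387 (347 to 430) and mam1 at 167 (153 to 183). In dcr1D the order was the same, with mfm3 at 1363 (1221 to 1516), mfm1 at 821 (735 to 915), mfm2 at 269 (221 to 324), mam2 at 149 (127 to 173) and mam1 at 66.3 (58.3 to 75.1). The neighbours mfm2 and mam2 did not differ beyond counting error in clr4D, and no other neighbours in either order had intervals that met.

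The DNA before each gene is shown because all 5 genes were above wt at 4 and 10 h in both clr4D and dcr1D although they lie apart on chromosomes I and II. The windows searched were the 250 bases before the annotated transcript start in ASM294v3, on both strands. The motifs were TTCTTTGTT, known as the TR box and bound by Ste11, and its core TTTGTT, which lies within it. A 60-base stretch around a core match is given for each gene in its own direction. Capitals mark TTTGTT and a further motif, ACAATG, each on either strand; the latter was looked for after the windows had been read.

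mfm1: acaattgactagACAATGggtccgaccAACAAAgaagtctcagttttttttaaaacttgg

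mfm2: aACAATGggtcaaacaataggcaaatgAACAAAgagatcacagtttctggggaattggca

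mfm3: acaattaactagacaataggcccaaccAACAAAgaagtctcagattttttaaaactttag

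mam1: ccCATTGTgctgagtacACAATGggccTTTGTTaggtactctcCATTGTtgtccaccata

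mam2: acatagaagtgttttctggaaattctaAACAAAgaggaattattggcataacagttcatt

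The full TR box was present in mfm1, 79 bases before the start, and in mfm3, 164 bases before it, each on the strand opposite to the gene, and in none of mfm2, mam1 and mam2. It occurs in 1.627% of 5102 promoter windows. The core was in all 5, and in 44.708% of all windows. The longest run shared by the windows of mfm1 and mfm3 was 19 bases and held the TR box. ACAATG occurred 2 times in mfm1, 3 times in mfm2, 3 times in mam1 and not in mfm3 or mam2, and in 17.444% of all windows. Of 25 other mating genes named or listed below, 9 had the TR box and 16 the core. These are matches of letters and are not binding sites that were measured.

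**Figure D4:**
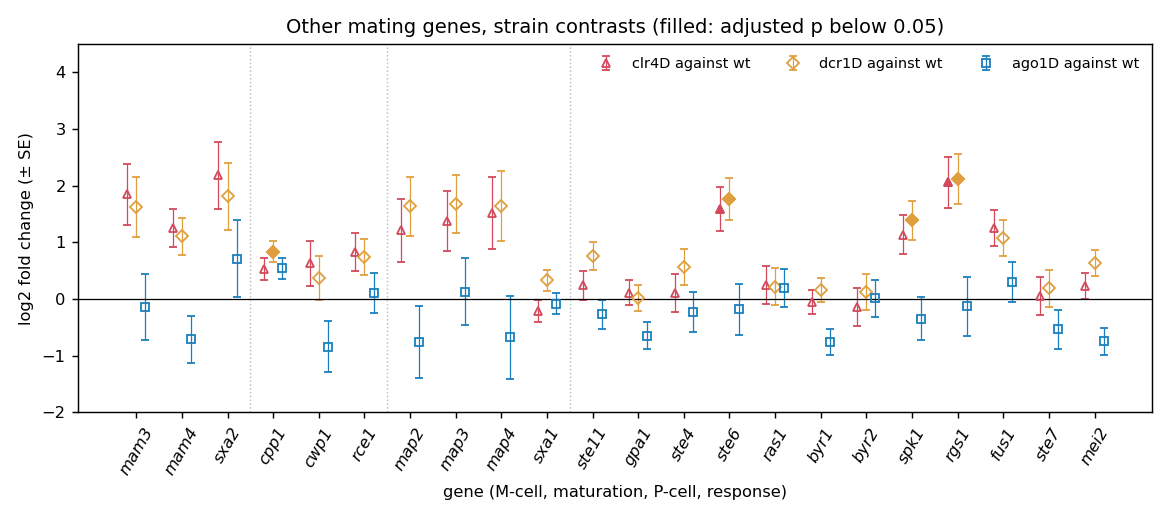
Fitted log2 fold change against wt with its SE for 22 other mating genes that passed the low-count filter, from edgeR over 6 libraries a strain; dotted lines separate M-cell, maturation, P-cell and response genes, and filled symbols passed at an adjusted p below 0.05. Filled are rgs1 and ste6 in clr4D, and rgs1, ste6, spk1 and cpp1 in dcr1D, and no gene is filled in ago1D.

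Other genes of the pathway were read from lists chosen with earlier results of these data known. Of 7 other M-cell genes 3 were tested (mam3, mam4 and sxa2), and 0 passed in clr4D, dcr1D or ago1D. Their medians were 1.85, 1.62 and -0.14 on the log2 scale. Of all genes 0.829% were called higher in clr4D and 1.87% in dcr1D, and 4.31% in either direction in ago1D. Beside these shares, 0 of 3 does not show that the genes were unchanged. sxa2, the carboxypeptidase that breaks down P-factor, stood at 2.18 (SE 0.59, adjusted p = 0.0943) in clr4D. The other 4 were the M-specific genes of the mating-type cassettes, which had 0 counts in all 24 libraries. Those cassettes are repeated in the genome, and reads with several equal placements were set aside, so these zeros do not measure their RNA. Of 4 genes that act on the M-factor precursor, cpp1, a subunit of the enzyme that attaches the lipid, rose by 0.84 (SE 0.19, adjusted p = 0.0170) in dcr1D, where 1.87% of all genes were called higher, and none passed in clr4D or ago1D. mam4, which methylates the end of the peptide, stood at 1.25 in clr4D (SE 0.33, adjusted p = 0.0922).

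P-cell genes were counted in every strain. Over 6 libraries wt held 59 counts of map2, which encodes P-factor, 60 of map3, the M-factor receptor, and 56 of map4, an adhesion protein of P cells. In clr4D these counts were 310, 422 and 557, and in dcr1D 339, 397 and 539. These sums are not scaled to library size. Of 7 P-cell genes listed 4 were tested and 0 passed against wt in clr4D, dcr1D or ago1D, with medians of 1.29, 1.64 and -0.38. Of all genes 0.829% were called higher in clr4D and 1.87% in dcr1D, and 4.31% in either direction in ago1D. Beside these shares, 0 of 4 does not show that the genes were unchanged. map3 stood at 1.67 (SE 0.51, adjusted p = 0.0806) in dcr1D. The other gene tested, sxa1, had 487 counts in wt, 489 in clr4D and 1088 in dcr1D. It stood at -0.21 (SE 0.19, adjusted p = 0.765) in clr4D and 0.33 (SE 0.19, adjusted p = 0.353) in dcr1D. Late against early in clr4D, where 2.11% of all genes were called higher, map2 rose by 3.40 (SE 0.77, adjusted p = 0.0275) and map3 by 3.78 (SE 0.85, adjusted p = 0.0266). In dcr1D, where 2.09% of all genes were called higher, none of the 4 was called. The clr4D and dcr1D libraries held short RNAs assigned to both the M-cell receptor gene mam2 and the P-cell receptor gene map3, at 478 and 506 CPM at 10 h in clr4D and at 183 and 256 CPM in dcr1D. Whether they came from the same cells was not measured.

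Of 13 genes of the pheromone response 12 were tested. In clr4D, where 0.829% of all genes were called higher, 2 were higher: rgs1, which ends the signal at the G protein (2.06, SE 0.45, adjusted p = 0.0195), and ste6, an activator of Ras (1.59, SE 0.38, adjusted p = 0.0429). In dcr1D, with 1.87% of all genes called higher, 3 were higher: rgs1 (2.11, SE 0.44, adjusted p = 0.00896), ste6 (1.76, SE 0.38, adjusted p = 0.0102) and spk1, the MAP kinase of the pathway (1.39, SE 0.34, adjusted p = 0.0300). The medians were 0.23 in clr4D and 0.60 in dcr1D, and -0.25 in ago1D, where 0 passed and 4.31% of all genes were called in either direction. Late against early, 1 of the 12 was called in clr4D, where 2.11% of all genes were called higher: fus1 (1.52, SE 0.41, adjusted p = 0.0494). In dcr1D, where 2.09% were, 0 passed. Set beside these, mfm1, mfm2, mfm3 and mam2 had fitted changes of 4.57 or more in each of clr4D and dcr1D. The highest value among the listed genes was 2.18. mfm1, mfm2, mfm3 and mam2 had few counts in wt and passed the low-count filter through these strains. Their values depend on the prior count of the fit, so the sizes do not rank them against the listed genes.

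The genes whose log2 CPM was most like the mean of the 5 over 24 libraries were mam3 (Pearson r = 0.929), shk2 (0.898), rgs1 (0.871), fus1 (0.845) and map4 (0.836). These are descriptions over libraries that share strains and times, and no test of the likeness was made. Genes picked by this likeness tend to be high where the 5 are high. Their strain contrasts are therefore given as a description. mam3, an M-cell adhesion protein, went from 28.7 CPM at 0 h to 581 at 10 h in clr4D and from 28.5 to 399 in dcr1D, and stood at 34.1 in wt and 48.8 in ago1D at 10 h. shk2, a protein kinase of the PAK family, had 15 counts in wt and 43 in ago1D over 6 libraries, against 416 in clr4D and 381 in dcr1D. By edgeR shk2 stood at 3.64 (SE 0.67, adjusted p = 0.00422) in clr4D, where 0.829% of all genes were called higher. In dcr1D it stood at 3.66 (SE 0.67, adjusted p = 0.00273), where 1.87% were. fus1, a formin needed for cell fusion, stood at 1.26 (SE 0.32, adjusted p = 0.0701) in clr4D and 1.08 (SE 0.32, adjusted p = 0.0729) in dcr1D.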

How the data were processed

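Small RNA of 20 to 30 nt was sequenced from 4 strains at 6 times, 1 library each. Per the submitters' processing notes the authors trimmed with cutadapt (no version given) and used Bowtie2 2.1.0, assembly ASM294v2 and HTSeq 0.6.1. The authors deposited raw counts for each annotated feature. Library sizes and tests leave out HTSeq's summary lines. Libraries were grouped by the strain and time in the labels.

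From these counts, edgeR 4.0.16 (R 4.3.3) computed quasi-likelihood F-tests over all 24 libraries with TMM scaling (factors 0.568 to 1.603), a low-count filter by strain (minimum count 10) and terms for strain and time, or strain-by-period means for late against early times. The threshold was an adjusted p below 0.05 (Benjamini-Hochberg over 4220 genes). DESeq2 1.42.0, total-count scaling, no filter, no time term, the compared libraries alone, each time left out, the early ago1D libraries left out and other late times or start thresholds were alternatives. Poisson, Clopper-Pearson and conditional binomial intervals are exact at 95% (scipy 1.17.1), and floors stand for 3 counts in 1 library. The scripts were tested on simulated data. Identifiers were matched to ASM294v3 (6530 of 6878, 94.94%) for names, overlaps and sequences alone.

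The genes named are the 5 genes, ago1, clr4 and dcr1, up to 4 genes per list with the smallest adjusted p in clr4D or dcr1D, and the 5 genes of highest Pearson r with the members' mean (log2 CPM, prior count 2). SPNCRNA.1381 and SPBC25B2.01 are named for their overlap. Members and lists were chosen with earlier results of these data known.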

Additional observations from a re-analysis of the deposited data

Results flagged for a closer look

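Each gene was examined in each strain for a library far from the other 5, which made 20 groups. The rule is set to flag about 1 in 20 groups of repeats by chance, and its rate for groups of different times was not measured. 3 libraries stood apart. The wt library at 2 h had 17.1 CPM of mfm3, from 4 counts, while the other wt libraries had 0 or 1 count. The dcr1D library at 24 h had 1217 CPM of mfm3, above 388 at 4 h and 368 at 10 h. The clr4D library at 10 h had 477.7 CPM of mam2, above 178 at 4 h and 137 at 24 h. The 6 libraries of a strain are different times and not repeats of 1 condition.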

How the results depend on the processing

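Of the counts of genes called and the start times, 307 values were within 1.5 times of those reported and 25 were not. Most of the 307 were counts of 0 that stayed at 0, so they say little about the genes called. Most of the 25 were among the counts above 0 and the start times. With the 12 compared libraries alone, 0 of the 5 genes were called higher in clr4D than in wt, 1 in dcr1D (mam1), and 1 and 0 were lower in ago1D than in clr4D and dcr1D, since the genes with few counts in wt or ago1D then failed the low-count filter. Without the time term 2 were called in dcr1D against wt and 1 in ago1D against dcr1D, and the cause was not tested. Leaving out 1 time gave 2 to 5 genes in clr4D and 2 to 4 in dcr1D against wt, 2 to 5 in ago1D against both clr4D and dcr1D, and 0 to 2 late in clr4D and 0 to 3 late in dcr1D. The lowest counts against wt came without 10 h, and the highest late counts without 4 h. Without the early ago1D libraries mam1 was called lower in ago1D than in wt (1 gene), with the limit of that fit given above. Late against early in clr4D, 4 were called with total-count scaling, and 4 in each strain with 4 h taken as late. The share of all genes called with total-count scaling was not computed. mam1 in clr4D passed with DESeq2 at 1.49 (adjusted p = 0.0271), over alternatives from 0.00303 to 0.474. With 5 counts as the start, mfm1 and mfm3 in clr4D and mfm3 in dcr1D started at 2 h and mam2 in clr4D at 0 h; with 20, mam1 in clr4D started at 1 h, and mfm1 and mam2 in dcr1D at 4 h. Leaving out 1 time moved the clr4D minus dcr1D value of mfm1 from -0.15 to 0.32, the late change of mam1 from -0.44 to 2.34 in clr4D and from -0.84 to 1.12 in dcr1D, and the late change relative to wt of mfm2 from -0.29 to 4.63 and of mam1 from -0.33 to 2.29 in clr4D, and from -0.17 to 4.21 and from -0.73 to 1.07 in dcr1D; each lowest value came without 10 h. Depth limits mfm1, mfm2, mfm3 and mam2 in wt and ago1D most, where 0 to 12 counts a library cannot show small differences.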
